A study of Mus musculus with 3 samples.

Results

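Ly6a, Ly6c1, Tcf21, Cd34, Thy1, Eng, Nt5e, Nes and Cd44 are genes by which stromal and mesenchymal progenitor cells are commonly recognised or sorted. These 9 genes, taken by name, were followed among the 24698 genes of a single-cell count table from a culture in which sorted testis cells became Leydig cells, the androgen-producing cells of the testis interstitium. The starting cells came from dissociated testes of adult C57BL/6 mice of 8 to 12 weeks and were sorted as SCA1+ and cKIT-. They were plated on Matrigel at 100000 cells per well of a 24-well plate, left to recover for 18 hours in medium with 10% serum, expanded for 3 days, and then moved to differentiation medium. Expansion medium held PdgfAA, PdgfBB and Fgf2 at 10 ng/ml each and the hedgehog agonist SAG at 0.5 uM, and the differentiation medium added 5 mM LiCl2 and 10 uM DAPT, an inhibitor of gamma-secretase and so of Notch receptor cleavage. Cells were measured by Drop-seq, which captures 1 cell per droplet with a barcoded bead, at days 4, 7 and 14 of this 1 kind of culture. By this schedule the day 4 cells came at the end of the expansion and those of days 7 and 14 from differentiation medium, so each comparison with day 4 is also one between media, and day and medium cannot be told apart in it. Each day is 1 library, there is no arm without the differentiation factors, and the labels do not say how many animals or wells went into a library, so no comparison between days has a replicate check and a difference between days cannot be told apart from a difference between libraries.

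The 9 genes encode proteins of several kinds. Ly6a and Ly6c1 belong to the Ly6 family of small proteins anchored to the outer membrane by a glycolipid. The Ly6a protein is SCA1, the antigen used for the sort, and Ly6a and several relatives are known as interferon-inducible genes. Tcf21 is a DNA-binding factor of the basic helix-loop-helix kind, known from embryonic mesenchyme and interstitial fibroblasts. Cd34 is a sialomucin of haematopoietic progenitors, endothelium and many fibroblasts. Thy1 (CD90), Eng (CD105, a co-receptor for TGF-beta and BMP ligands) and Nt5e (CD73, the enzyme that turns extracellular AMP into adenosine) make up the classical surface panel of cultured mesenchymal stromal cells. Nes encodes nestin, an intermediate filament of neural and perivascular progenitors, and Cd44 is the main surface receptor for hyaluronan. The sort acted on SCA1 protein, so a high Ly6a level at the start of the culture was a condition of the experiment and not a result.

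The sequences in front of the transcription start are given for the members whose levels moved most apart from or together with another member, namely Ly6c1, the relative of Ly6a, and the pair Nes and Cd44, whose levels were high and then low on the same days. RefSeq windows of 250 bases before to 50 bases after a start were at hand for 7 of the 9 members (Tcf21, Ly6c1, Cd34, Eng, Nes, Nt5e and Cd44). The 250 bases before the start are printed 5′ to 3′ on the gene's strand, build GRCm38.p6. Capitals mark a TATAAA match in Ly6c1 (chr15:75048838-75049087, minus strand) and GGGCGG matches on the opposite strand in Nes (chr3:87970843-87971092, plus strand). The Cd44 stretch (chr2:102901666-102901915, minus strand) holds neither.
Ly6c1: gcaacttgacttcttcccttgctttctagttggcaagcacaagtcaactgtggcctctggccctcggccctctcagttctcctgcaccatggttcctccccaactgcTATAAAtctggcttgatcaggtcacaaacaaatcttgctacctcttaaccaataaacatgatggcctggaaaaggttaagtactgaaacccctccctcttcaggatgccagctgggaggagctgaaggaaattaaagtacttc
Nes: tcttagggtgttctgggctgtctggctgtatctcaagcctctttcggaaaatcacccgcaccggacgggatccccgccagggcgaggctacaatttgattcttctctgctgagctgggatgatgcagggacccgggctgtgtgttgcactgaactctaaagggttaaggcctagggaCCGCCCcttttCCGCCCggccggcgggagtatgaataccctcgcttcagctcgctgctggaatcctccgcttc
Cd44: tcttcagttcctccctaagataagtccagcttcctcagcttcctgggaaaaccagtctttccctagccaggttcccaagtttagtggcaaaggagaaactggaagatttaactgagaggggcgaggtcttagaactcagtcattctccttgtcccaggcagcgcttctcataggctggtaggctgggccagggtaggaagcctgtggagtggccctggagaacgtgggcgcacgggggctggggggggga
The TATAAA match of Ly6c1 began at position -143 from the start and lay in 1 of its 2 windows, and those of Nes began at -73 and -62. In the windows of 300 bases, read on both strands, TATAAA was in 1 of the 7 members, against 13.6% of 32851 RefSeq windows. The GC box GGGCGG was in 3 of the 7, Nes, Nt5e and Cd44 (where it began at position 4 after the start), against 35.7% of all windows. The interferon-gamma activated site TTCNNNGAA was in 0 of the 7 members (8.30% of all windows), and the core of the interferon-stimulated response element (GAAA, a gap of 2 bases, and GAAA again) was in 0 of the 7 (3.44% of all windows). These are matches of letters and say nothing of binding.

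A sequence limit touches Ly6c1 alone among the members. Drop-seq reads the end of a transcript, and in the last 500 bases of the annotated transcripts 208 of 1646 stretches of 94 bases of Ly6c1 (12.6%) also stand in another gene, 183 of them in Ly6c2 and 25 in Ly6a. For the other 8 members 0 stretches were shared. Ly6c2 held 0, 0 and 1 unique molecular identifiers (UMIs, counts of single captured RNA molecules) on days 4, 7 and 14. The Ly6c1 levels carry this uncertainty, since reads in shared stretches can be split between the relatives or lost. Ly6a lies on chromosome 15 of GRCm38 from 74994877 to 74998031 and Ly6c1 from 75044018 to 75048830, both on the minus strand and 46.0 kb apart in the Ly6 cluster.

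The kept cells numbered 2980 on day 4, 2171 on day 7 and 973 on day 14, with 12677110, 11627440 and 5324400 UMIs and a median of 2886.5, 3285 and 3272 UMIs per cell. Levels are UMIs of a gene summed over the cells of a day per 1000000 UMIs (CPM), with exact Poisson 95% intervals in parentheses, and in such sums fewer cells with a gene and less of its RNA per cell cannot be told apart. Shares of cells with at least 1 UMI are given after each cell was thinned at random to 1500 UMIs, which left out the 753, 429 and 179 shallower cells of the 3 days, and carry exact Clopper-Pearson 95% intervals. All intervals cover counting error only. A difference between days was called at 2-fold on the log2(CPM + 1) scale for genes with at least 20 UMIs in both days together, and "rose" and "fell" are used of called differences only. The sort and exclusion genes stayed low, with Kit at 0.789, 0.0860 and 2.07 CPM and Ptprc (CD45, of all leukocytes) at 0.316, 0.344 and 2.82 CPM on days 4, 7 and 14. Of the 12 endothelial markers, Cldn5, Erg, Sox17, Vwf and Tie1 held at most 8 UMIs on any day. The list summed to 100, 133 and 37.6 CPM, of which Cdh5, also an endothelial gene, made 77.7, 111 and 22.3. Cdh5 was in 12.4% of day 4 differentiating myofibroblast-like and 18.5% of day 7 ECM myofibroblast-like thinned cells. The 8 lymphocyte markers summed to 3.47, 3.10 and 2.25 CPM, and the 9 macrophage markers to 12.2, 29.6 and 241 CPM, of which Lyz2 made 4.10, 19.4 and 200. Sperm transcripts were found in every class, and a cluster of 51 cells was led by them and by Lyz2. Prm1 (protamine, of spermatids) was at 10.3 CPM in differentiating myofibroblast-like and 48.9 CPM in proliferating progenitor-like cells of day 4. Among thinned cells it was in 1.88% of day 4 differentiating myofibroblast-like cells, 1.64% of day 7 ECM myofibroblast-like cells, and 2.85% and 3.43% of day 14 Leydig-like and differentiating Leydig-like cells, classes that are described further on.

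Most members were lower on day 14 than on day 4, and the Ly6 members alone were called between days 4 and 7. From day 4 to day 7, 0 of the 9 members were higher and 2 lower (Ly6a and Ly6c1), against 2.25% of 12954 genes higher and 2.76% lower (5.01% either way). From day 7 to day 14, 2 of 8 counted members (all but Nt5e, which had 14 UMIs on both days together) were higher (Ly6a and Ly6c1) and 3 lower (Thy1, Nes and Cd44), against 10.1% of 12656 genes higher and 14% lower (24.1% either way). From day 4 to day 14, 1 of 9 was higher (Ly6c1) and 6 were lower (Tcf21, Thy1, Eng, Nes, Nt5e and Cd44), against 13.5% of 12712 genes higher and 15.3% lower (28.8% either way). The median log2 ratio of the members was -0.50, -0.71 and -1.24 in these 3 comparisons, and that of all genes counted was 0.09, -0.13 and -0.05. With 10 CPM as pseudocount the 6 members lower on day 14 than on day 4 became 3 (Thy1, Nes and Cd44). Scaling by the median ratio over genes in place of the total shifted day 14 by a log2 of -0.16 and day 7 by 0.02.

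The 2 Ly6 members were high on day 4, low on day 7 and high again on day 14. Ly6a stood at 523 (510–535), 64.2 (59.6–68.9) and 358 (342–375) CPM on days 4, 7 and 14. Days 4 and 14 were thus far above day 7, with day 14 below day 4. Ly6a fell 8.15-fold from day 4 to day 7 (ratio interval 7.55–8.80) and rose 5.59-fold from day 7 to day 14 (5.13–6.09), while the log2 ratio of day 14 over day 4 was -0.54 and not called. Among thinned cells 44.2% (42.2–46.3) held a Ly6a UMI on day 4, 6.77% (5.64–8.06) on day 7 and 21.8% (19.0–24.8) on day 14, against 57.6%, 15.9% and 32.7% without thinning. All 3 thinned shares lay above those of Prm1, which at the same 1500 UMIs per cell serve as a rough gauge of free RNA. A share below that of Prm1 does not by itself mark a gene as background, since the amount of free RNA can differ between genes.

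Ly6c1 stood at 24.0 (21.4–26.8), 3.10 (2.17–4.29) and 62.2 (55.6–69.2) CPM. The order was unlike that of Ly6a, since Ly6c1 was highest on day 14. It fell 7.75-fold from day 4 to day 7 (5.47–11.3), rose 20.1-fold from day 7 to day 14 (14.2–29.2), and on day 14 was 2.59-fold above day 4 (2.21–3.04), a called rise. The thinned shares were 2.87%, 0.517% and 7.43% of cells, and 7.21%, 1.57% and 13.4% unthinned. Over all day 7 cells the thinned share was below that of Prm1 (1.38%).

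Cells with at least 10 Ly6a UMIs held a larger part of the Ly6a UMIs on day 14 than on days 4 and 7. They numbered 142 on day 4 and held 32.9% of that day's Ly6a UMIs, 8 on day 7 with 17.2%, and 49 on day 14 with 60.7%. Their median depth was 9814, 6262.5 and 7580 UMIs, so this cut on unthinned counts favours deep cells. The tenth of cells with most Ly6a UMIs held 50.7%, 82.8% and 77.8% of them on days 4, 7 and 14, so by that measure day 14 was not the most concentrated. The mean over cells with a Ly6a UMI was 3.86, 2.16 and 6.00 UMIs. One Leydig-like cell of day 14 with 10518 UMIs carried 176 Ly6a UMIs and 20 Ly6c1 UMIs. Without it, day 14 stood at 326 CPM for Ly6a and 58.5 CPM for Ly6c1.

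**Figure D1:**
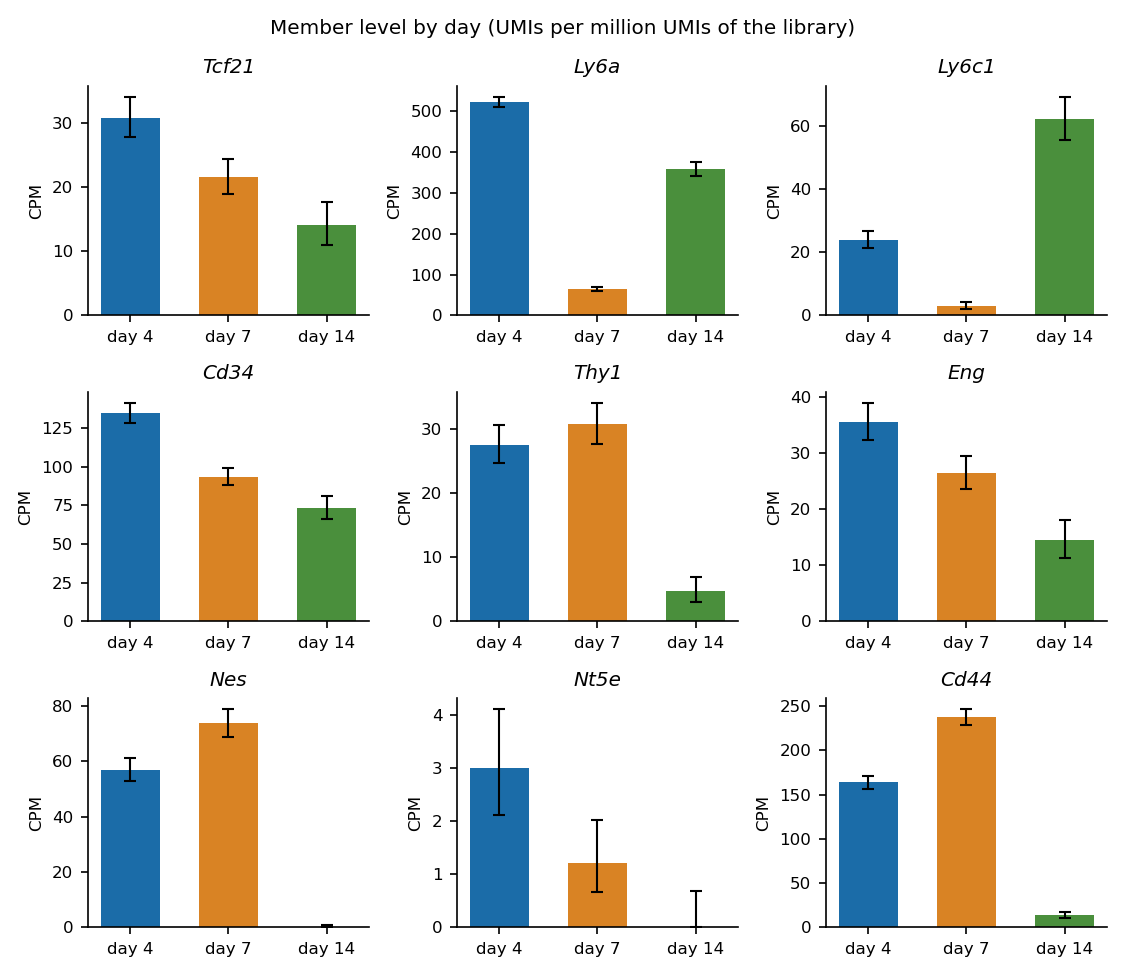
Level of each of the 9 member genes on days 4, 7 and 14 in UMIs per 1000000 UMIs (CPM), 1 panel per gene with its own axis from 0, the bars being levels and the whiskers exact Poisson 95% intervals. Ly6a and Ly6c1 dip on day 7 (64.2 and 3.10 CPM) and return by day 14 (358 and 62.2 CPM), while Nes and Cd44 are highest on day 7 (73.8 and 238 CPM) and lowest on day 14.

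The rest of the Ly6 family gave a different set of patterns. Of 13 other Ly6 or Ly6-like genes, 11 were in the table and 4, 5 and 5 had enough UMIs in the 3 comparisons. From day 4 to day 7, 0 were higher and 1 lower past 2-fold (2.25% and 2.76% of all genes). From day 7 to day 14, 3 were higher and 1 lower (10.1% and 14% of all genes). From day 4 to day 14, 2 were higher and 0 lower (13.5% and 15.3% of all genes). The largest rise was that of Ly6d, a marker of early B cells and of some epithelial cells, at 0.710, 0 and 48.8 CPM. Its day 14 UMIs were in 3.08% of cells, or 2.02% of thinned cells, against 3.15% for Prm1. Ly6k, named after its values were seen, stood at 29.7, 6.45 and 89.4 CPM, but of its 377 UMIs of day 4 only 134 lay in the differentiating myofibroblast-like and 13 in the proliferating progenitor-like cells. Of the 2 genes of the list with the highest levels, Ly6e, which is known to be interferon-inducible, stood at 518, 287 and 696 CPM, and Cd59a, a complement inhibitor, at 369, 370 and 353 CPM.

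Interferon-stimulated genes shared the first step of Ly6a and not the second. All 12 genes of the list had enough UMIs. From day 4 to day 7, 0 were higher and 11 lower past 2-fold (2.25% and 2.76% of all genes), with a median log2 ratio of -2.29. From day 7 to day 14, 1 was higher and 5 lower (10.1% and 14% of all genes). From day 4 to day 14, 0 were higher and 11 lower (13.5% and 15.3% of all genes), with a median of -3.52. Isg15, a ubiquitin-like protein induced by type I interferon, stood at 126, 9.03 and 3.19 CPM. Ifi27l2a, the list gene with the largest fall to day 14, stood at 1631, 245 and 22.4 CPM. Bst2 (tetherin), the other gene of the list with a high level, was lowest on day 7 like Ly6a, with 466, 225 and 704 CPM, but unlike Ly6a was highest on day 14. It was the 1 gene of the list called higher on day 14 than on day 7. By class, the summed level of the list was 978 CPM in the Leydig-like and 585 CPM in the differentiating Leydig-like cells of day 14 and 764 CPM in the ECM myofibroblast-like cells of day 7, in which Ly6a was at 361, 374 and 34.5 CPM. Bst2 alone made 869, 434 and 231 CPM of these 3 sums, so on day 14 they were mostly the level of 1 gene. The part of these genes' fall in the Ly6a levels was not tested.

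**Figure D2:**
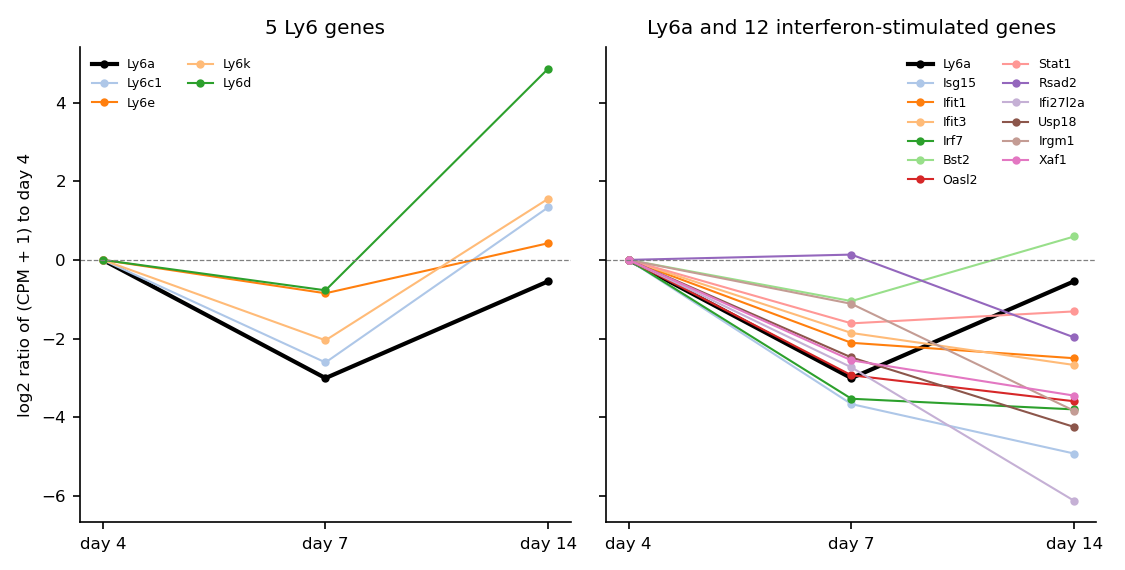
log2 ratio of (CPM + 1) to day 4 on days 4, 7 and 14, for 5 Ly6 genes (left) and for Ly6a with the 12 interferon-stimulated genes (right), each line a gene and the dashed line no difference from day 4. Ly6a returns from -3.01 on day 7 to -0.54 on day 14, whereas Ifi27l2a goes on down to -6.13, and Bst2 is the interferon-stimulated gene that ends above its day 4 level.

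Tcf21 was low throughout and lower on the later days. It stood at 30.9 (27.9–34.1), 21.6 (19.0–24.4) and 14.1 (11.1–17.7) CPM on days 4, 7 and 14. The 3 intervals do not overlap, and the order was day 4, day 7, day 14. Tcf21 fell 2.20-fold from day 4 to day 14 (1.71–2.85, log2 ratio -1.08). That call was lost when days were scaled by the median ratio over genes (-0.93), with a pseudocount of 10 CPM (-0.76) and on thinned cells (-0.53). The log2 ratio of day 7 over day 4 was -0.50, and -0.05 on thinned cells. The thinned shares were 4.36% (3.55–5.29), 3.96% (3.09–4.99) and 2.90% (1.84–4.31) of cells, with overlapping intervals, and 10.3%, 9.12% and 5.76% unthinned. Over all day 14 cells the thinned share was near that of Prm1 (3.15%), and the levels by class are given further on.

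Of 10 partners and inhibitors of basic helix-loop-helix factors 9 were in the table, and 8, 7 and 7 had enough UMIs in the 3 comparisons. From day 4 to day 7, 1 was higher and 1 lower past 2-fold (2.25% and 2.76% of all genes). From day 7 to day 14, 2 were higher and 0 lower (10.1% and 14% of all genes). From day 4 to day 14, 0 were higher and 2 lower (13.5% and 15.3% of all genes). Tcf4 and Tcf12, E proteins with which Tcf21-like factors pair, stood at 195, 174 and 375 CPM and at 106, 96.2 and 51.8 CPM. The largest fall was that of Msc (musculin), a close relative of Tcf21, at 2.29, 0.860 and 0 CPM.

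Cd34 was lower at each later day without passing 2-fold. It stood at 135 (128–141), 93.6 (88.1–99.3) and 73.4 (66.3–81.1) CPM. The log2 ratios were -0.52 for day 7 over day 4 and -0.87 for day 14 over day 4. The thinned shares were 16.1%, 11.2% and 9.07% of cells, and 33.3%, 27.7% and 22.9% unthinned. Its family member Podxl2, also a sialomucin, rose to day 14 with 1.42, 2.92 and 7.51 CPM, and Podxl, the other member, held 3, 1 and 0 UMIs.

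The classical surface panel of Thy1, Eng and Nt5e was lower on day 14 than on day 4 in all 3 genes. Thy1 stood at 27.5 (24.7–30.6), 30.7 (27.6–34.1) and 4.70 (3.04–6.93) CPM. Days 4 and 7 were alike to within their intervals and day 14 was far lower. Thy1 fell 5.86-fold from day 4 to day 14 (3.91–9.19), and of its 25 UMIs on day 14, 17 came from 1 Leydig-like cell of 59447 UMIs, without which 8 UMIs or 1.52 CPM were left. The thinned shares were 3.10%, 4.13% and 0.378%, and 5.67%, 8.57% and 0.719% unthinned. On day 14 the shares of Thy1, Eng, Nes and Nt5e lay below that of Prm1 (3.15%), and for them expression and free RNA cannot be told apart there.

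Eng stood at 35.6, 26.5 and 14.5 CPM. It was lower at each later day and fell 2.46-fold from day 4 to day 14 (1.93–3.17, log2 ratio -1.24), or -0.90 with a pseudocount of 10 CPM, which is not called. Its thinned shares were 5.12%, 3.96% and 2.14%, and 12.1%, 12.0% and 6.89% unthinned. Nt5e was near the limit of detection, at 38, 14 and 0 UMIs or 3.00, 1.2 and 0 CPM. Against the 3 UMIs that a count of 0 allows over the day 14 library, Nt5e was at least 5.32-fold lower on day 14 than on day 4. The thinned shares of 0.225%, 0.172% and 0% were below those of Prm1 on every day.

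**Figure D3:**
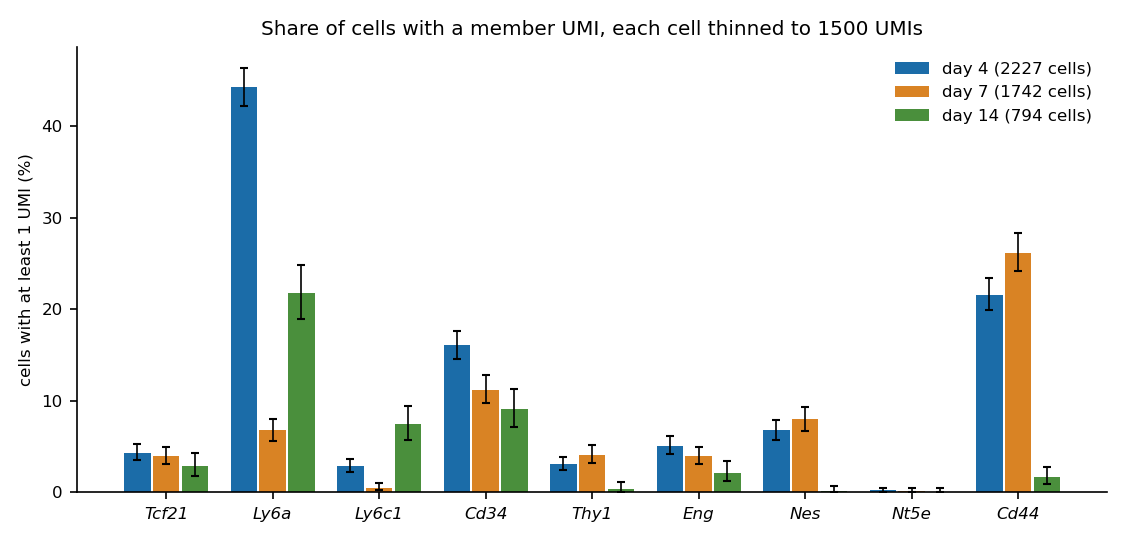
Share of cells with at least 1 UMI of each member (percent) on days 4, 7 and 14, after thinning to 1500 UMIs per cell, with exact Clopper-Pearson 95% intervals as whiskers. The Ly6a share goes from 44.2% to 6.77% to 21.8% of cells, and Cd44 from 21.6% to 26.2% to 1.64%.

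Genes that act with the panel moved in both directions. Of the 9 genes of the endoglin receptor complex 7 were in the table. From day 4 to day 14, 1 was higher and 2 lower past 2-fold (13.5% and 15.3% of all genes). Tgfbr3 (betaglycan), the co-receptor related to Eng, rose with 43.8, 34.2 and 229 CPM, and Smad1, a transducer of BMP signals, fell with 47.5, 38.4 and 16.7 CPM. Bmpr2, the type II BMP receptor, stood at 76.4, 82.8 and 43.8 CPM. Of 5 integrin and syndecan partners of Thy1, 1 was higher and 3 lower from day 4 to day 14, beside the same shares over all genes. Itgb5 rose with 72.7, 95.3 and 165 CPM, Itga5, the alpha chain of a fibronectin receptor, fell with 59.8, 60.2 and 7.51 CPM, and the list's other gene of high level, Itgav, stood at 120, 176 and 40.0 CPM.

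Genes that make or clear extracellular adenosine around Nt5e were also divided. Of 11 genes 10 were in the table and 8 had enough UMIs. From day 4 to day 14, 2 were higher and 2 lower (13.5% and 15.3% of all genes). Entpd1 (CD39), which makes the AMP that Nt5e uses, rose with 1.66, 0.688 and 10.1 CPM. Enpp1, another source of AMP, fell with 23.5, 48.2 and 3.01 CPM. The adenosine transporter Slc29a1 stood at 35.6, 93.2 and 81.9 CPM and adenosine kinase, Adk, at 64.4, 68.5 and 21.6 CPM.

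Nes was present on days 4 and 7 and nearly absent on day 14. It stood at 56.8 (52.7–61.1), 73.8 (68.9–78.9) and 0.188 CPM, the last being 1 UMI in 1 differentiating Leydig-like cell. Day 7 was highest, 1.30-fold above day 4, which is not called. Day 14 was 302-fold lower than day 4 (counting interval 54.1–11961). The thinned shares were 6.78%, 7.98% and 0.126% of cells, and 14.2%, 17.7% and 0.103% unthinned. In 1 day 7 cell of 52660 UMIs there were 43 Nes UMIs, and without it day 7 stood at 70.4 CPM.

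Other intermediate filaments also fell from day 7 to day 14. Of the 5 genes 4 had enough UMIs, and 0 were past 2-fold between days 4 and 7 (5.01% of all genes). From day 7 to day 14, 4 were lower (14% of all genes), and from day 4 to day 14, 3 were lower (15.3% of all genes). Vim (vimentin), the main intermediate filament of mesenchymal cells, stood at 2934, 3875 and 1891 CPM. Lmna (lamin A) stood at 353, 527 and 130 CPM. Synm (synemin), which assembles with vimentin and nestin, had the largest fall with 25.6, 23.9 and 6.57 CPM.

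Cd44 had the same shape as Nes. It stood at 164 (157–171), 238 (229–247) and 13.9 (10.9–17.4) CPM. Day 7 was highest, 1.45-fold above day 4 and not called, and day 14 was lowest by far. Cd44 fell 17.1-fold from day 7 to day 14 (13.6–21.8) and 11.8-fold from day 4 to day 14 (9.33–15.1). Of the 74 UMIs of day 14, 14 came from 1 cell of an unnamed cluster led by Lyz2 and sperm genes, and 11.3 CPM were left without it. The thinned shares were 21.6%, 26.2% and 1.64%, and 38.2%, 48.8% and 5.24% unthinned, the day 14 thinned share over all cells being below that of Prm1.

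Among 10 genes that make or break down hyaluronan or bind Cd44, 8 had enough UMIs. Of these, 0 were past 2-fold between days 4 and 7 (5.01% of all genes). From day 4 to day 14, 1 was higher and 4 lower (13.5% and 15.3% of all genes). Msn (moesin), which ties the Cd44 tail to actin, had the largest fall with 606, 833 and 104 CPM, while its relative Ezr (ezrin) rose with 23.5, 31.5 and 57.5 CPM. Spp1 (osteopontin), a secreted ligand of Cd44 and of integrins, stood at 6631, 6700 and 1312 CPM.

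Of 21 other mesenchymal progenitor markers, 19 had enough UMIs from day 4 to day 14, and 3 were higher and 8 lower (13.5% and 15.3% of all genes). Vcam1, an adhesion molecule, had the largest rise with 98.6, 176 and 899 CPM. Pdgfrb, the PDGF receptor of pericytes and fibroblasts, had the largest fall with 43.6, 36.0 and 3.01 CPM. The 2 genes of highest level were Itgb1, at 2033, 2064 and 839 CPM, and Cd81, a tetraspanin, at 608, 846 and 1913 CPM.

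To see which cells carried the members, all cells were clustered without the members and without the genes of the lists around them, and clusters were named from marker lists. The lists behind the class names used here are markers of the study's own clusters, which it chose on these libraries. Differentiating myofibroblast-like cells (2220 of day 4, 103 of day 7) were led by F3 and Ifitm1 and also by the interferon-stimulated Ifi27l2a and Isg15. ECM myofibroblast-like cells (1269 of day 7), proliferating progenitor-like cells (586 of day 4 and 477 of day 7), differentiating Leydig-like cells (501 of day 14) and Leydig-like cells (441 of day 14) were the other classes of at least 50 cells on a day. A cluster of 90 day 4 and 263 day 7 cells is called the Eln Mfap2 Entpd2 cluster here after its leading genes. It stayed unnamed because its 10 leading genes held Sfrp1, a differentiating Leydig-like marker, and no marker of the list that matched it best. In it, 7 of 10 interstitial progenitor-like and 6 of 10 differentiating Leydig-like markers were at least 1.5 times higher than in other cells. Classes and days went together so closely that a class and its library cannot be told apart in most cases. Class names also depended on the clustering. With 30 components 774 day 4 cells were named germ cell-like, and 1438 day 4 cells differentiating myofibroblast-like in place of 2220. Proliferating progenitor-like cells then numbered 396 and 227 on days 4 and 7. The differentiating Leydig-like and Leydig-like cells of day 14 numbered 507 and 442. Of the values recomputed with 30 components 52 stayed and 3 moved.

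Within day 14, Tcf21 and Cd34 differed more than 2-fold between the 2 Leydig classes and the Ly6 members less. Tcf21 was at 30.8 (23.3–40.0) CPM in differentiating Leydig-like cells and 3.31 (1.65–5.92) in Leydig-like cells, a ratio of 9.32 (4.83–19.7). Cd34 was at 122 (106–139) and 45.7 (38.7–53.5) CPM, a ratio of 2.66 (2.16–3.29), and Cd44 at 19.8 (13.9–27.4) and 5.71 (3.44–8.92), a ratio of 3.47 (1.94–6.40). These 3 were higher past 2-fold in the less mature class. The share of all genes past 2-fold between the 2 classes is not given here, so their number is no result about the members as a set. Thy1, at 1.10 and 6.91 CPM from 2 and 23 UMIs, was lower, 17 of the 23 UMIs being those of the 1 deep cell. On thinned cells Tcf21 was in 5.43% against 0.475%, Cd34 in 13.7% against 4.75% and Cd44 in 3.43% against 0.238% of cells, while Prm1 was in 3.43% against 2.85%. The Cd44 share of the less mature class was thus no higher than that of Prm1 there, and its difference is given as a level only. The differentiating Leydig-like cells were the shallower ones, with a median of 2184 against 5153 UMIs. In contrast Ly6a was at 374 (347–403) and 361 (341–382) CPM and in 21.1% and 22.3% of thinned cells, and Ly6c1 at 84.7 (71.9–99.2) and 52.3 (44.8–60.7) CPM and in 8.29% and 6.89%, a level ratio of 1.62 (1.30–2.02). Ly6d, unlike both, was at 4.95 CPM in differentiating Leydig-like and 75.4 CPM in Leydig-like cells.

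**Figure D4:**
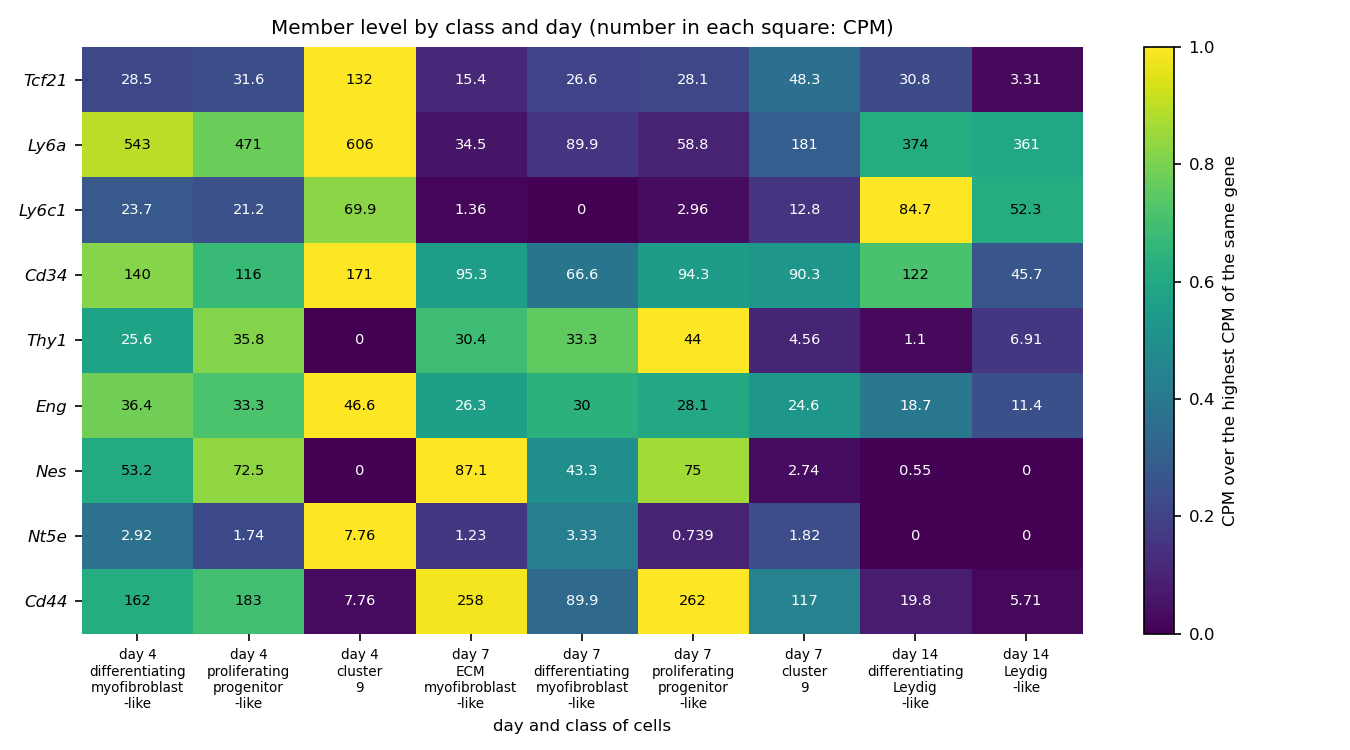
Level of each member in each class and day with at least 50 cells. The number in a square is the level in UMIs per 1000000 UMIs and the colour is that level over the highest level of the same gene. Cluster 9 is the Eln Mfap2 Entpd2 cluster. Tcf21 is highest in it on day 4 (132 CPM) and lowest in the Leydig-like cells of day 14 (3.31 CPM), and Nes and Thy1 are 0 in cluster 9 of day 4.

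Within day 7, Ly6a was low in the 3 named classes. It was at 34.5 CPM in ECM myofibroblast-like, 58.8 in proliferating progenitor-like and 89.9 in differentiating myofibroblast-like cells, and higher, at 181 CPM, in the Eln Mfap2 Entpd2 cluster. In proliferating progenitor-like cells, a class held by both days, Ly6a was at 471 CPM on day 4 and 58.8 on day 7, Ly6c1 at 21.2 and 2.96, Tcf21 at 31.6 and 28.1, Cd34 at 116 and 94.3, Nes at 72.5 and 75.0 and Cd44 at 183 and 262. The difference between days 4 and 7 in the Ly6 members was thus present within a class.

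Within the differentiating myofibroblast-like cells of day 4, Tcf21 and Nes were high in different clusters. The 3 differentiating myofibroblast-like clusters stood at 35.6, 39.6 and 13.0 CPM for Tcf21 and at 28.7, 24.9 and 94.7 CPM for Nes, in the order of the clusters led by Ifi27l2a and Lpl, by F3 and Ifitm1, and by Isg15 and Hbegf. Nes was thus highest where Tcf21 was lowest among these 3. The proliferating progenitor-like cluster led by Cenpf and Cenpa, by contrast, held both, with Tcf21 at 37.4 and Nes at 67.0 CPM on day 4. In the 3 clusters Cd44 followed Nes, with 153, 113 and 224 CPM. Ly6a stood at 554, 641 and 422 CPM in the same clusters, and on day 7 the deeper ECM myofibroblast-like cluster led by Mgll and Anxa8 held more Nes than the one led by Grem1 and Hmga2 (97.5 and 42.3 CPM).

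The members went in different directions in the Eln Mfap2 Entpd2 cluster. On day 4 its 90 cells held Tcf21 at 132 CPM, 4.58-fold above the other cells of that day (3.12–6.52), and Ly6c1 at 69.9 CPM, 3.03-fold above (1.77–4.88). The Ly6c1 level rests on 18 UMIs in 10 cells, and after thinning 0 of 66 cells held it, which by the Clopper-Pearson interval allows up to 5.44%, against 2.87% of all day 4 cells. Tcf21 was in 13.6% of the thinned cells. Ly6a, at 606 CPM, was 1.16-fold above the rest with an interval of 0.985–1.36. Nes had 0 UMIs there and was at least 4.98-fold lower than in the other cells (3 UMIs over the cluster as floor), and Thy1, also at 0, at least 2.41-fold lower. Cd44 had 2 UMIs, a level 21.5-fold lower (5.94–178). The cluster was thus high in Tcf21 and low in Nes, Thy1 and Cd44, and the Ly6c1 difference was not seen in the thinned cells.

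The same cluster on day 7 was also above the other cells in the level of Tcf21 and below them in those of Thy1, Cd44 and Nes. Tcf21 was at 48.3 CPM, 2.57-fold above the other cells (1.86–3.50), Ly6a at 181 CPM, 3.49-fold above (2.95–4.12), and Ly6c1 at 12.8 CPM, 6.11-fold above (2.89–12.5). Ly6c1 was in 2.04% of the thinned cells of the cluster, from 14 UMIs before thinning, and Prm1 in 0.510%. Thy1 was 7.33-fold lower (3.11–22.7), Cd44 2.14-fold lower (1.80–2.58) and Nes, with 3 UMIs, 29.7-fold lower (10.1–144). Cd34 (90.3 CPM) and Eng (24.6 CPM) differed from the other cells by intervals that include 1. Pdgfra, a further interstitial progenitor marker named after its values were seen, was at 287 CPM in the cluster on day 4 and 181 CPM on day 7, against 91.4 CPM in day 4 differentiating and 40.2 CPM in day 7 ECM myofibroblast-like cells. The name of the cluster changed with the clustering. At a resolution of 0.4, 97.5% of its cells fell in a cluster named differentiating Leydig-like, at 1.2, 64.5% did and 33.9% were named interstitial progenitor-like, and with 30 components 91.5% were named interstitial progenitor-like. In the cells of that last name Tcf21 was at 100 CPM on day 4 (106 cells) and 49.2 CPM on day 7 (283 cells), Nes at 17.2 and 2.64, and Thy1 at 0 and 4.39.

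Pairs of members were then counted in the same cells, at 1500 UMIs each, against the number of cells that the product of the 2 shares gives. Intervals on these ratios are counting intervals of the cells with both genes. Ly6a and Ly6c1 were together in 52 cells of day 4 against 28.3 by the product (ratio 1.84, 1.37–2.41), in 3 of day 7 against 0.610, and in 39 of day 14 against 12.9 (3.03, 2.16–4.15). On day 14, 22.5% of cells with Ly6a also held Ly6c1, against 3.22% of cells without, and on day 4 5.28% against 0.966%. The ratio was as large within classes, at 2.93 in Leydig-like (19 against 6.48 cells), 3.26 in differentiating Leydig-like (20 against 6.13) and 1.77 in day 4 differentiating myofibroblast-like cells (44 against 24.8). The sequence stretches that Ly6c1 shares with Ly6a touch this pair, and their part in the ratio was not tested.

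Cd34 was found with Ly6c1 more often than the product gives on days 4 and 14, and with Ly6a on day 14. Cd34 and Ly6c1 were together in 21 cells of day 4 against 10.3 (2.04, 1.26–3.12) and in 14 of day 14 against 5.35 (2.62, 1.43–4.39). Cd34 and Ly6a were together in 179 cells against 158 on day 4 and 13 against 13.2 on day 7, and in 28 against 15.7 on day 14 (1.78, 1.19–2.58). Tcf21 with Ly6a gave 34 cells against 42.9 on day 4 (0.792) and 5 against 5.01 on day 14, and with Ly6c1 0 cells against 2.79 on day 4. With Cd34, Tcf21 gave 18 cells against 15.6 on day 4 (1.15) and 4 against 7.72 on day 7 (0.518). With Eng it gave 6 against 4.97 on day 4 (1.21) and 3 against 2.73 on day 7 (1.10). With Thy1 it gave 2 against 3.01 on day 4 (0.665) and 5 against 2.85 on day 7 (1.75). These ratios rest on few cells and have no common direction.

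Tcf21 and Nes were seldom found together. On day 4 2 cells held both against 6.58 by the product (0.304, 0.0368–1.10), and on day 7 2 cells against 5.51 (0.363). Over all cells of a day these intervals include 1. In the differentiating myofibroblast-like cells of day 4 0 cells held both against 4.00 (counting interval of the ratio 0–0.922), and in the proliferating progenitor-like class on day 4 both were in 2 cells against 2.03. Nes and Cd44 were together in 45 cells of day 4 against 32.6 (1.38) and in 49 of day 7 against 36.4 (1.35). Cells with a Nes UMI held less Pdgfra than cells without, at 30.9 against 114 CPM on day 4 and 14.4 against 80.3 CPM on day 7 (the genes set beside members in this way were chosen after values were seen).

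**Figure D5:**
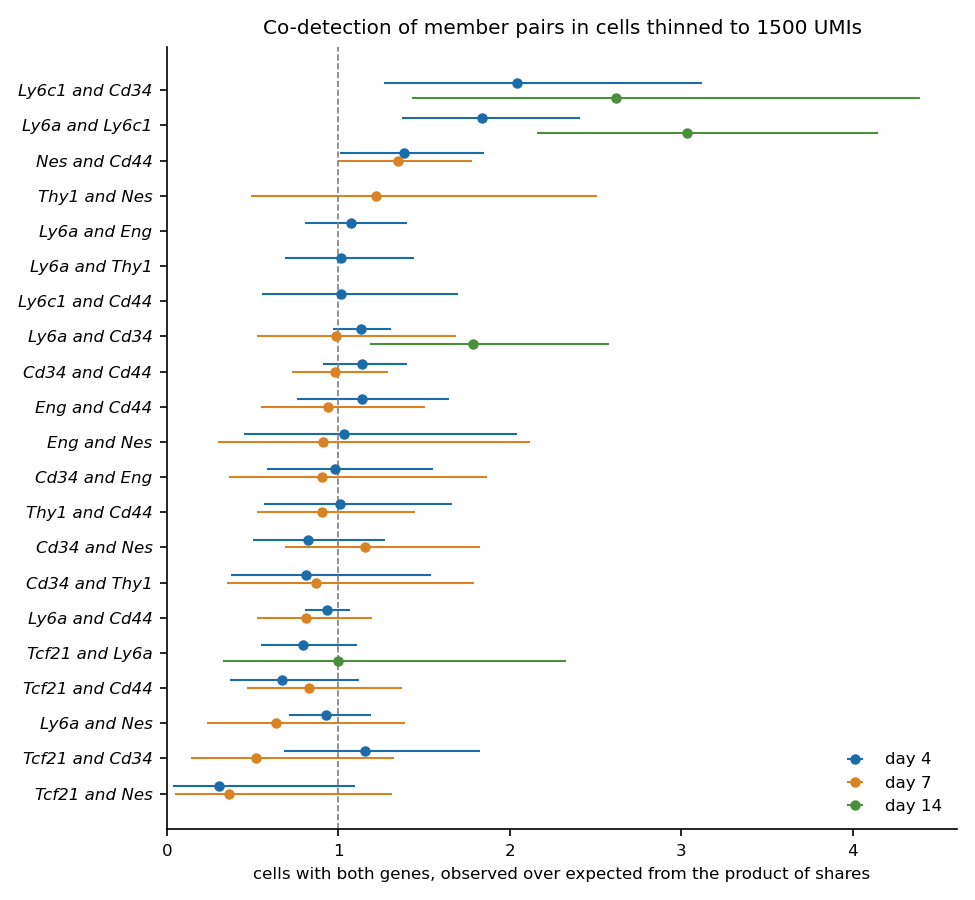
Observed over expected number of thinned cells with both genes of a member pair, for the 21 pairs and 39 pair-day points with at least 5 expected cells, with counting intervals as horizontal lines, coloured by day, and a dashed line at 1. Ly6a with Ly6c1 stands at 1.84 on day 4 and 3.03 on day 14, and Tcf21 with Nes at 0.304 on day 4 and 0.363 on day 7.

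Among thinned cells, those with a Ly6a UMI also differed in other genes. On day 4 they held less Acta2 (smooth muscle actin) than cells without, 2506 against 3531 CPM, and more Dcn (decorin), 826 against 541 CPM. Cells with Ly6c1 on day 4 held 1417 against 3127 CPM of Acta2. On day 14 cells with Ly6a held less Cyp17a1, an enzyme of androgen synthesis, at 212 against 756 CPM, and more Gpx3, at 1391 against 684 CPM. Cells with Cd34 on day 14 were low in Cyp17a1 (130 against 688 CPM) and high in Dcn (2056 against 919 CPM). Cd34 was itself higher in the differentiating Leydig-like than in the Leydig-like cells. Between these classes Cyp17a1 stood at 30.8 and 1353 CPM and Dcn at 1750 and 518 CPM. Cyp17a1 is on the list that named the Leydig-like class, so its difference between the classes was in part set by the naming. Dcn is on the interstitial progenitor-like list, and neither gene was kept out of the clustering. The part of the class mix in the Cd34 contrast was not tested.

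Few cells held several members at once. At 1500 UMIs, 70.3% of day 4 cells, 50.4% of day 7 cells and 34.0% of day 14 cells held at least 1 member. At least 3 members were in 6.06% (5.11–7.13), 1.38% (0.885–2.04) and 1.64% (0.875–2.78). The highest number in any cell was 5, 5 and 4. Day 4 thus had the most cells with several members, and days 7 and 14 did not differ beyond their intervals. Without thinning these shares were 27.6%, 20.1% and 8.22%. The most frequent combination was Ly6a alone on day 4 (23.2% of cells) and on day 14 (13.4%), and Cd44 alone on day 7 (17.3%). Ly6a with Cd44 made 5.52% of day 4 cells and Ly6a with Ly6c1 3.65% of day 14 cells.

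Over the 12 clusters, the genes with patterns most like that of Tcf21 in log2 level were Kcne4, a potassium channel subunit, with a Pearson r of 0.930, Pmp22, a membrane protein of myelin, at 0.905, and Itga1, a collagen-binding integrin chain, at 0.904. For Ly6a they were the interferon-inducible Ifi203 at 0.946, Ralgps2 at 0.869 and Tor1aip1 at 0.856. Ly6c1 had an r of 0.756 with Ly6a. The clusters share the 3 libraries, so these values describe likeness and are not tests.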

How the data were processed

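Drop-seq libraries of days 4, 7 and 14 of the culture, 1 per day, were analysed. Per the study's methods and the submitters' processing notes, the authors aligned reads to GRCm38 with STAR (2.5.2a in the notes, with Picard 2.6.0 and SAMtools 1.2), used the Drop-seq tools to count UMIs for each gene in each cell barcode, and kept cells in which 500 or more genes were detected and mitochondrial UMIs made no more than 10%. The deposited values are raw UMI counts without normalization. The merged table of kept cells was used. Its entries for the 3 days differed from the deposited count tables per day in 0 places, and 0 cell barcodes were shared between days among its 6124 cells. That table has 495 further columns of no sample analysed here, and they were left out throughout. The authors' filter, reapplied, left 2981, 2173 and 974 cells, against 2980, 2171 and 973 in the merged table. Kept cells held 594 to 80524 UMIs.

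The 9 members and the 11 lists of genes around them (104 genes) were chosen with earlier results of these data known. Named genes are the members, from each list the genes with the largest rise and largest fall past 2-fold from day 4 to day 14 and the 2 of highest level, and the 3 genes most like Tcf21 and Ly6a over clusters among genes of at least 50 CPM in a cluster. Other genes were named after their values were seen. Levels, ratios and shares used Python 3.11.15, pandas 2.3.3, scipy 1.17.1 and numpy 2.4.6, with plots from matplotlib 3.10.9. Intervals are exact at 95%, the floor for a count of 0 is 3 UMIs, ratios between days carry conditional binomial intervals, and log2 ratios have a pseudocount of 1 CPM. With 1 library per day there was no test. Cells were clustered with Seurat 5.3.0 in R 4.3.3 on counts scaled to 10000 UMIs per cell and log-transformed, without the 113 members and list genes (2000 variable genes, 20 components, 20 neighbours, Louvain resolution 0.8). A cluster took a name from lists of markers when at least 3 markers of the list had 10 UMIs and stood 1.5-fold or more above the remaining cells (pseudocount 10 CPM). It stayed unnamed where another list had at least 1 marker, and no fewer than the best list, among its 10 leading genes of at least 50 CPM. The study also clustered day 0 cells, so differences from it may come from the rebuilt names. Doublets were not removed, because Scrublet (scanpy 1.11.5, expected rate 6%) called 3 cells (0.0490%), too few to have worked. Positions come from the GENCODE M21 annotation of GRCm38 and upstream sequences from RefSeq on GRCm38.p6. The steps were tested on simulated data. Alternatives were other cell filters, doublet removal, equal weight of cells, other scalings, pseudocounts, count minimums, thinning depths and clusterings.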

Additional observations from a re-analysis of the deposited data

Results flagged for a closer look

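The barcodes that the authors' cell filter removed, which enter no comparison above, also held member UMIs above the level that a count of 0 allows (7.42 UMIs per 1000000 UMIs over 404347 UMIs in 876 barcodes). Per 1000000 UMIs these barcodes held 12.4 of Tcf21, 245 of Ly6a, 19.8 of Ly6c1, 106 of Cd34, 34.6 of Thy1, 34.6 of Eng, 39.6 of Nes and 96.5 of Cd44. In the kept cells the levels over the 3 days were 24.2, 313, 22.6, 108, 24.7, 28.2, 53.3 and 166 in the same order. By day, Ly6a in the removed barcodes was at 454, 25.1 and 186 per 1000000 UMIs on days 4, 7 and 14, from 73, 3 and 23 UMIs, lowest on day 7 as in the kept cells. The day 7 value equals the level that a count of 0 allows over that day's removed barcodes (interval 5.17–73.2). The Tcf21 value of 12.4 rests on 5 UMIs (4.02–28.9).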

How the results depend on the processing

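Of 95 recomputed counts and shares that answer a comparison, 89 stayed near their value and 6 moved. With a pseudocount of 10 CPM the members at least 2-fold lower on day 14 than on day 4 were 3 in place of 6. The share of cells with at least 3 members was 2.79% on day 4 and 0.651% on day 7 when cells were thinned to 1000 UMIs, and 27.6%, 20.1% and 8.22% on days 4, 7 and 14 without thinning, a setting added after the data had been seen. Among the other recomputed values 0 reversed, 948 stayed, 74 moved and 6 lost their call. The lost calls were all of day 14 against day 4, for Tcf21 under median-ratio scaling, the larger pseudocount and thinning, for Eng under the larger pseudocount (-0.90), and for Nt5e under the larger pseudocount (-0.38, since the pseudocount exceeds its level) and thinning (-1.32, too few UMIs left to be counted). Leaving out the 369 cells with the highest doublet scores (6% of each day), added after Scrublet had called 3 cells, moved 1 of 139 values. No paired analysis was possible because each day is a single library. With 1 library per day, a difference between days cannot be told apart from one between libraries, and at 1500 UMIs a gene at the level of Nt5e is seen in too few cells to follow its share.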
